A study of Homo sapiens with 9 samples.

Results

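RNA from human cells given p65 2CS was compared with RNA from cells given p65 WT, both after treatment with TNF, the cytokine tumor necrosis factor. The comparison uses 6 of the series' 9 libraries, chosen by their labels: p65 WT replicates 4, 5 and 6 and p65 2CS replicates 7, 8 and 9. Of the 58735 genes in the deposited count table, 18195 had enough reads to be tested, and each test asks whether p65 2CS libraries differ directly from p65 WT libraries. All cells were HEK293A, a flat-growing derivative of the human embryonic kidney line HEK293, labelled as p65 knockout. The p65 WT group was transfected with wild-type p65, the p65 2CS group with the form named p65 2CS, and the remaining group, vector replicates 1, 2 and 3, with empty vector. Each group received TNF at 20 ng/mL for 2 h, starting 24 h after transfection, so every library, vector included, comes from p65 knockout cells exposed to TNF. No cells without TNF are in the series, and its response is not measured here. What 2CS abbreviates, whether the knockout is 1 clone, and whether the libraries of a group are separate cultures is not in the labels. If they are not, the p-values measure only a technical spread. The cells of a transfected dish do not all take up plasmid, and in such bulk RNA fewer cells expressing a gene and less RNA per cell cannot be told apart.

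NF-kB transcription factors are dimers of Rel-family proteins, and p65, encoded by RELA, carries a strong activation domain. In resting cells IkB proteins hold the dimers in the cytoplasm. TNF binding to its receptor activates the IKK kinases, IkB is degraded, and p65 enters the nucleus and binds kB motifs near chemokine, cytokine and adhesion genes as well as genes for its own inhibitors. The series names palmitoylation of p65 as its subject, the attachment of a fatty acid to cysteine by ZDHHC enzymes, which thioesterases reverse.

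Stretches before the start of 4 genes lower with p65 2CS are shown because each holds a kB motif, the sequence that p65 binds. Genes without a match were passed over, so these 4 do not show how common the motif is. They come from RefSeq on GRCh38.p14, read along the gene's strand from 5′ to 3′, and capitals mark the motif match. LILRB5 is an inhibitory leukocyte receptor, SELE the adhesion molecule E-selectin, CCL20 a chemokine for CCR6-bearing cells and CXCL3 a neutrophil chemokine.
LILRB5, chr19:54257366-54257495, minus strand: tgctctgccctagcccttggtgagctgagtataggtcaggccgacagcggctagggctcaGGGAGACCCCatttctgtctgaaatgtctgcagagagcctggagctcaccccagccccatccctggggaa
SELE, chr1:169734104-169734233, minus strand: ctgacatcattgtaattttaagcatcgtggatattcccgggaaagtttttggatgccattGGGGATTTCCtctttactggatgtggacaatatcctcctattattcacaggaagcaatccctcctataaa
CCL20, chr2:227813703-227813832, plus strand: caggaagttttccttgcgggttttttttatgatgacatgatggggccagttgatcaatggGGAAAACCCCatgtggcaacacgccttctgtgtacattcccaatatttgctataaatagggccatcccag
CXCL3, chr4:74038698-74038828, minus strand: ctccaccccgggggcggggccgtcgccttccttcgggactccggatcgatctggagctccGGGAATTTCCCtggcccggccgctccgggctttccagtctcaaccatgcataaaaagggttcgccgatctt
Counted back from the RefSeq start, the match began 162 bases before LILRB5, 94 before SELE and 79 before CCL20. In CXCL3 a pair of overlapping matches began 79 and 78 bases before the start. A match is a sequence description and not evidence of binding.

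RELA was far above vector in both p65 groups and was itself unequal between them. Its level was 68.2, 69.0 and 65.9 CPM (the read count divided by the scaled library total, in the usual units) with vector, 9048, 8037 and 9922 CPM in p65 WT cells, and 25750, 26770 and 24040 CPM in p65 2CS cells. The groups did not overlap, and every p65 2CS library held more RELA than every p65 WT library. RELA reads were 0.793% to 0.972% of a p65 WT library's counts and 2.4% to 2.69% of a p65 2CS library's. The difference, a log2 fold of 1.5 ± 0.0374 (± standard error throughout for log2 folds), passed the test (edgeR quasi-likelihood, adjusted p = 1.4e-30). Plasmid and endogenous RELA reads cannot be separated in these counts, and protein was not measured. Form of p65 and amount of RELA transcript therefore differ together in every value that follows, and cannot be told apart. AP001362.2, the gene that overlaps the 5′ end of RELA on the other strand, had 28, 38 and 32 reads with p65 WT and 29, 44 and 33 with p65 2CS.

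**Figure D1:**
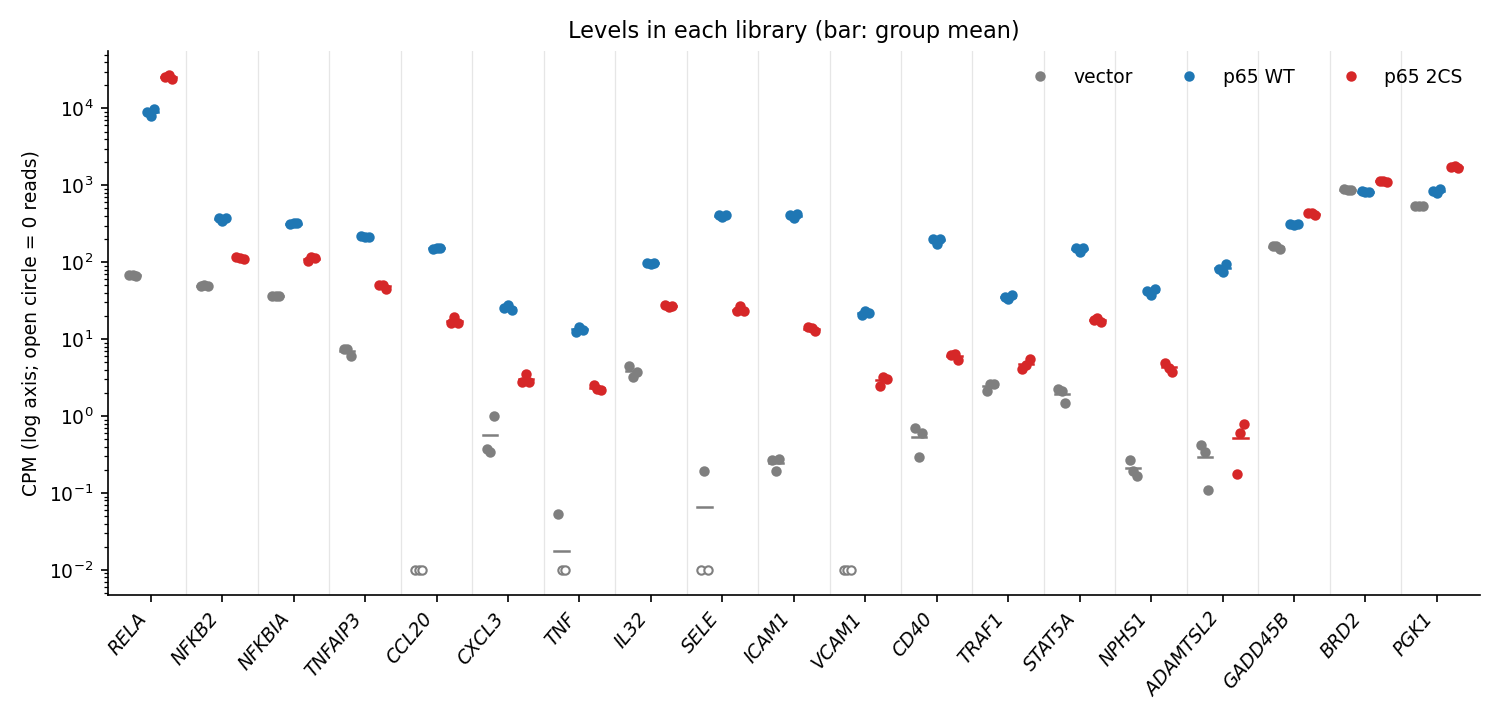
CPM on a log axis in each of the 9 libraries for 19 genes, by group, with a bar at each group's mean and open circles for libraries with 0 reads. For RELA, GADD45B, BRD2 and PGK1 the p65 2CS libraries lie above the p65 WT libraries, and for each of the other genes shown they lie below.

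Totals were 15989601 to 16507689 counts per p65 WT library and 17146134 to 25068515 per p65 2CS library. Of 22 kidney and neural markers used for the HEK293 line, 18 had enough reads to be tested, and UMOD and STMN2 had no read. NEFL, a neurofilament gene that HEK293 cells express, had 40246 reads over the p65 WT libraries and 50443 over the p65 2CS libraries. Leukocyte genes were near absent, with 1 read of PTPRC and none of MS4A1 over all 9 libraries.

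Large differences ran almost all one way, toward lower levels with p65 2CS. At an adjusted p under 0.05, 5685 genes (31.2% of those tested) were called, 3254 lower (17.9%) and 2431 higher (13.4%) with p65 2CS. Called genes at least 2-fold lower numbered 884 (4.86%), against 92 at least 2-fold higher (0.506%), or 52 under DESeq2. With libraries scaled by their totals alone the balance of all calls turned, to 2820 lower and 3098 higher, whereas the 2-fold counts were 861 and 97. At 4-fold the counts were 486 lower and 7 higher, at 8-fold 314 and 2, at 16-fold 182 and 0, and at 32-fold 108 and 0. The pair at least 8-fold higher, FOXD4L1 and LINC01252, are named after their values were seen: 0.335 against 3.53 CPM and 0.126 against 1.17 CPM. Over all genes tested the median log2 fold was 0.003, with quartiles of -0.167 and 0.153. In 865 of the 884 genes every p65 2CS library was below every p65 WT library, and in 82 of the 92 every one was above. The genes were called from these same libraries, which favours such a gap, so it adds no separate support to the counts.

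**Figure D2:**
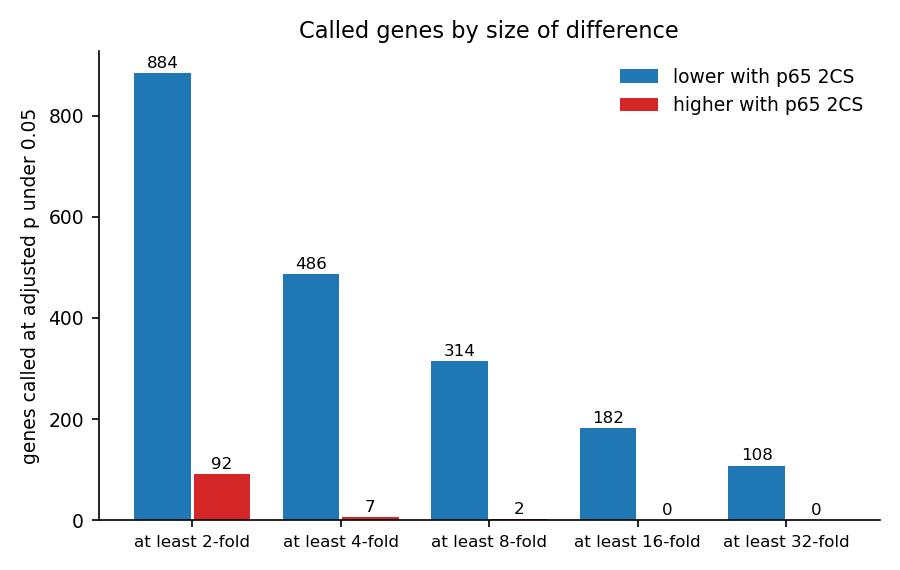
Number of genes called at an adjusted p under 0.05 whose difference reaches each fold, lower (blue) or higher (red) with p65 2CS. The lower side runs from 884 genes at 2-fold to 108 at 32-fold, and the higher side from 92 to 0.

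The genes lower by at least 2-fold had a median of 3.1 CPM in p65 WT cells and 0.537 CPM in p65 2CS cells, and 340 of the 884 reached 5 CPM with p65 WT. With p65 2CS 427 of them were under 0.5 CPM, and with vector 520 were. The 92 genes at least 2-fold higher were mostly scarce: their median was 0.459 CPM in p65 WT cells and 1.16 CPM in p65 2CS cells, and 6 of them, RELA included, reached 5 CPM with p65 2CS.

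**Figure D3:**
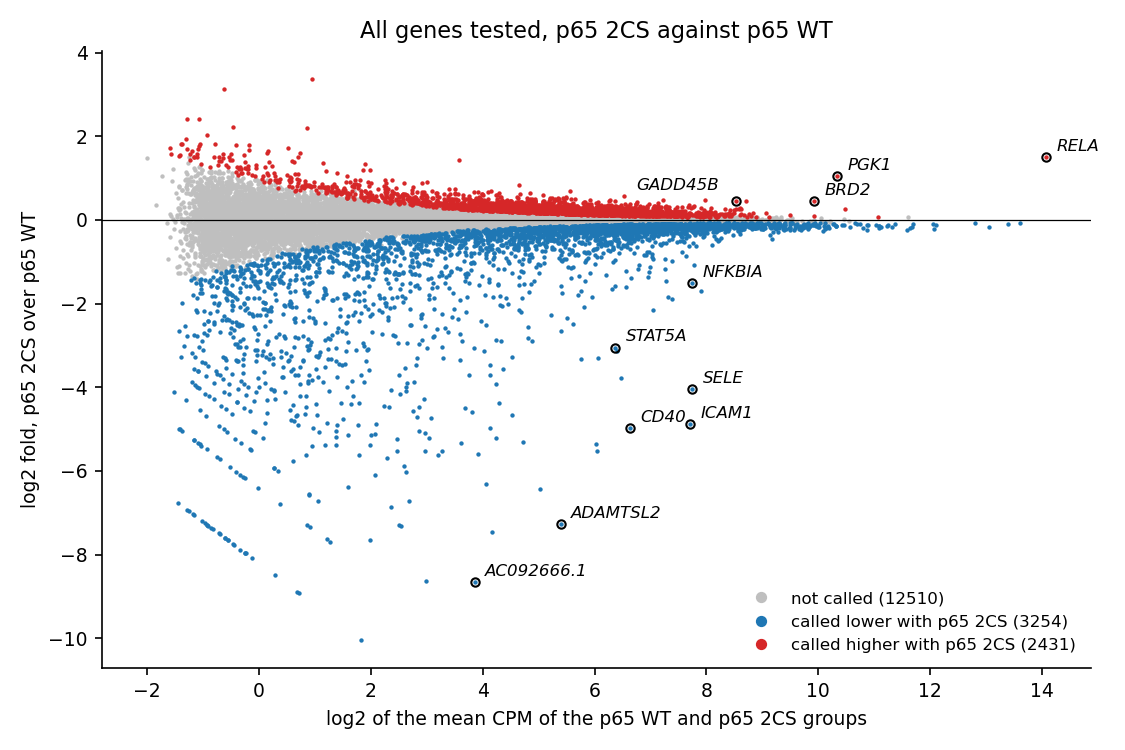
Log2 fold of p65 2CS over p65 WT against the log2 of the mean CPM of both groups for the 18195 genes tested, with called genes in colour. Points below -2 are spread over a wide range of levels, whereas above 2 they are few and lie at low levels.

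The 12 lowest folds were taken among called genes whose groups did not overlap and whose p65 WT mean reached 5 CPM. Their expression with p65 WT and the gap between groups were thus set by the rule, and scarcer genes with equally low folds were left out. With p65 2CS these genes were close to silent. ADAMTSL2, a secreted glycoprotein that binds the matrix (chromosome 9, 133532164 to 133575519, plus strand of GRCh38), had 81.8, 75.1 and 94.3 CPM in p65 WT cells and 0.175, 0.596 and 0.790 CPM in p65 2CS cells. It was 154-fold lower (log2 fold -7.26 ± 0.147, edgeR adjusted p = 1.07e-33), while vector cells had a mean of 0.293 CPM. TMPRSS13, a membrane-bound serine protease, had 67.0, 56.2 and 69.0 CPM against 0.349, 1.03 and 0.685 CPM (log2 fold -6.44 ± 0.146, edgeR adjusted p = 4.41e-32). In both genes the groups were separated by more than an order of magnitude. SFTPA2, a lung surfactant protein with a near-identical neighbour, SFTPA1, with which reads may be shared, went from 35.8 ± 1.27 CPM (SD, n = 3) to 0.189 ± 0.0640 CPM. The epithelial keratin KRT74 fell from 11.3 ± 0.627 to 0.0703 ± 0.122 CPM, LILRB5 from 12.7 ± 1.57 to 0.105 ± 0.0998 CPM, and the AP-1 family factor BATF from 5.98 ± 1.74 to 0.0635 ± 0.0142 CPM. Their log2 folds lay between -7.47 for SFTPA2 and -6.38 for BATF.

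Several of these genes had so few reads with p65 2CS that only limits can be given. AC135012.3 had 340 reads over the p65 WT libraries and none over the p65 2CS libraries, so it was at least 145-fold lower, taking 3 counts over the group as the most that a count of 0 allows. LINC01198 had 753 reads with p65 WT and 2 with p65 2CS, 483 times as high in CPM, with 95% counting limits of 133 and 3990. CTSE, an aspartic protease, had 377 and 2 reads, 242 times as high, with limits of 66.5 and 2000. These limits (Clopper-Pearson) cover counting error only. AC092666.1, a noncoding gene, had 29.3, 26.1 and 31.4 CPM in p65 WT cells and 0.116, 0.0795 and 0 CPM in p65 2CS cells. Z97192.3 and LINC01679, both noncoding, had 11.5 and 10.2 CPM in p65 WT cells and 0.0659 and 0.0749 CPM in p65 2CS cells. None of these 12 genes reached 0.5 CPM on average with vector, so each was close to silent both without p65 and with p65 2CS. Z97192.3 and LINC01198 overlap other genes on the same strand, C22orf34 and AL138686.2, which were also lower.

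Among the 6 genes other than RELA with the largest differences in CPM at a difference of at least 1.5-fold, taken without regard to gene length, C1orf159 is the one outside the lists used here. It had 271, 248 and 268 CPM in p65 WT cells, 70.1, 72.1 and 70.2 CPM in p65 2CS cells, and a mean of 58.8 CPM with vector (2CS against WT: log2 fold -1.89 ± 0.0391, edgeR adjusted p = 1.76e-33). The p65 2CS libraries lay much nearer to the vector mean than to any p65 WT library.

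The NF-kB genes were described in 6 lists, of which 90 of 114 listed genes were tested. With p65 2CS 57 were lower and 3 higher, and 30 were not called, against 17.9% lower and 13.4% higher over all genes. Scaling by library totals gave 5 higher. Their median log2 fold was -0.48, against 0.003 for all genes tested, and 34 of the 90 were at least 2-fold lower, against 4.86% of all genes.

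Of the 4 subunit genes other than RELA, 3 were lower with p65 2CS (75%, against 17.9% of all genes) and 0 higher (against 13.4%). NFKB2, which encodes the p100 precursor of p52, had 374, 340 and 381 CPM in p65 WT cells and 117, 113 and 111 CPM in p65 2CS cells. Its groups did not overlap, and it was 3.22-fold lower (log2 fold -1.69 ± 0.0358, edgeR adjusted p = 4.08e-33). RELB, the usual partner of p52, fell from 112 ± 5.7 to 72.6 ± 4.26 CPM and NFKB1, which encodes p105 and p50, from 124 ± 4.67 to 105 ± 2.34 CPM. REL, encoding c-Rel, had 24.9 ± 0.263 and 26.2 ± 1.48 CPM and was not called (log2 fold 0.08 ± 0.0735, edgeR adjusted p = 0.469).

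In the list of NF-kB feedback inhibitors 10 of 15 tested genes were lower (66.7%, against 17.9% of all genes). None was higher (against 13.4%), and the median log2 fold was -0.39. Membership of the list does not mean that p65 induced each gene in these cells. Scaling by library totals gave 2 higher, and leaving out p65 2CS replicate 8 or p65 WT replicate 5 or 6 gave 1. NFKBIA, the IkB that holds NF-kB in the cytoplasm, had 310, 322 and 319 CPM in p65 WT cells and 104, 116 and 112 CPM in p65 2CS cells. TNFAIP3, the A20 deubiquitinase that shuts down TNF signalling, had 222, 214 and 214 CPM and then 49.99, 51.2 and 44.7 CPM. Neither gene's groups overlapped, and the log2 folds were -1.52 ± 0.0346 and -2.15 ± 0.0446 (edgeR adjusted p = 5.63e-32 and 1.76e-33). AL357060.1, which lies across TNFAIP3 on the other strand, was also lower (log2 fold -2.33). The atypical IkB protein NFKBID went from 28.6 to 9.96 CPM, NFKBIE from 29.9 to 14.7 CPM, the deubiquitinase CYLD from 108 to 56.3 CPM, the A20 partner TNIP1 from 158 to 93.1 CPM and the nuclear IkB protein BCL3 from 17.6 to 10.2 CPM. NFKBIZ, another nuclear IkB protein, was lower by less, 27.6 ± 3.28 against 21.1 ± 0.559 CPM (log2 fold -0.39 ± 0.0798).

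Chemokine genes had the lowest median of the NF-kB lists, a log2 fold of -1.78. Of 12 tested genes 9 were lower (75%, against 17.9% of all genes), all 9 by at least 2-fold, and 0 higher (against 13.4%). CCL20 had 151, 152 and 152 CPM in p65 WT cells and 16.1, 19.2 and 16.3 CPM in p65 2CS cells, and no read with vector. Its replicates were tight and far apart between groups, an 8.7-fold difference (log2 fold -3.12 ± 0.0582, edgeR adjusted p = 1.07e-33). CXCL3 had 25.1, 27.9 and 23.9 CPM against 2.79, 3.54 and 2.79 CPM, 8.3-fold lower. The neighbouring neutrophil chemokines CXCL1 and CXCL2, whose sequences resemble CXCL3 so that reads may be shared, were lower by 2.25 each on the log2 scale. CXCL8, the main neutrophil attractant in humans, went from 20.5 ± 2.11 to 5.71 ± 0.905 CPM. CCL5, which attracts T cells, went from 5.10 ± 0.576 to 0.800 ± 0.280 CPM, CXCL10 from 5.21 to 1.56 CPM and the membrane-anchored CXCL16 from 36.0 to 15.4 CPM. CCL2, the monocyte attractant, differed less: 12.1, 11.6 and 14.5 CPM in p65 WT cells and 11.6, 10.9 and 10.0 CPM in p65 2CS cells, a log2 fold of -0.23 ± 0.111 that was not called (edgeR adjusted p = 0.111).

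Of 18 cytokine and growth factor genes 9 were lower (50%, against 17.9% of all genes) and 1 was higher (5.56%, against 13.4%). The other 8 were not called, and the median log2 fold was -0.47. EBI3, the chain shared by IL-27 and IL-35, had 28.2, 25.3 and 27.8 CPM in p65 WT cells and 0.582, 1.59 and 1.00 CPM in p65 2CS cells (log2 fold -4.59 ± 0.171, edgeR adjusted p = 1.87e-24). TNF itself had 12.4, 14.5 and 13.3 CPM against 2.50, 2.27 and 2.16 CPM, 5.79-fold lower. Both genes had every p65 2CS library far below every p65 WT library. IL32, a cytokine of human epithelial and immune cells, had 97.2, 94.4 and 98.3 CPM against 27.9, 26.0 and 26.9 CPM, and CSF1, the macrophage growth factor, went from 65.8 ± 1.51 to 37.3 ± 3.7 CPM. IL34, which binds the same receptor as CSF1, fell from 3.47 to 0.940 CPM, IL1A from 1.64 to 0.561 CPM, and TNFSF9, the ligand of 4-1BB, from 35.0 to 17.0 CPM. The member that was higher, BMP2, a bone morphogenetic protein, had 51.0, 50.9 and 50.8 CPM in p65 WT cells and 61.0, 60.1 and 57.2 CPM in p65 2CS cells (log2 fold 0.22 ± 0.0542, edgeR adjusted p = 0.0012).

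Adhesion molecules and receptors were lower in 20 of 26 tested genes (76.9%, against 17.9% of all genes) and higher in 0 (against 13.4%). Their median log2 fold was -0.74. ICAM1, the ligand of leukocyte integrins (chromosome 19, 10270835 to 10286615, plus strand of GRCh38), had 407, 378 and 427 CPM in p65 WT cells and 14.3, 14.2 and 12.8 CPM in p65 2CS cells. SELE had 413, 388 and 414 CPM against 22.9, 26.6 and 23.2 CPM. In both, the p65 2CS replicates were within a few CPM of each other and more than an order of magnitude below p65 WT, with log2 folds of -4.88 ± 0.0498 and -4.05 ± 0.0483 (edgeR adjusted p = 2.34e-44 and 5.05e-42). VCAM1, which binds integrins on monocytes and lymphocytes, had 20.6, 22.9 and 22.0 CPM against 2.44, 3.26 and 3.06 CPM, and no read with vector. CD40, a costimulatory receptor of the TNF receptor family, had 199, 175 and 203 CPM against 6.29, 6.44 and 5.38 CPM, with the lowest log2 fold of the list, -4.98 ± 0.0721. Among receptors with few reads, TNFRSF1B, the second TNF receptor, had 1.46 ± 0.690 and 0.0573 ± 0.0598 CPM, and CSF2RB, the shared chain of the IL-3, IL-5 and GM-CSF receptors, had 1.82 ± 0.447 and 0.107 ± 0.138 CPM, whereas TLR3, a sensor of double-stranded RNA, had 2.28 and 2.00 CPM and was not called. CD83, a surface protein of activated antigen-presenting cells, fell from 105 to 42.0 CPM, the death receptor FAS from 55.8 to 28.9 CPM and the hyaluronan receptor CD44 from 90.7 to 63.2 CPM. TNFRSF9, or 4-1BB, had 18.4, 15.5 and 16.1 CPM against 15.4, 15.8 and 13.3 CPM, ranges that overlap, and was not called (edgeR adjusted p = 0.256).

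Survival genes were mixed, with 6 of 15 lower (40%, against 17.9% of all genes), 2 higher (13.3%, against 13.4%) and 7 not called. Their median log2 fold was -0.14. TRAF1, a TNF receptor adaptor, had 35.8, 33.2 and 37.2 CPM in p65 WT cells and 4.13, 4.65 and 5.53 CPM in p65 2CS cells (log2 fold -2.89 ± 0.105, edgeR adjusted p = 7.48e-25). BIRC3, the ubiquitin ligase cIAP2, went from 15.1 ± 1.63 to 6.51 ± 0.894 CPM. GADD45B, a stress protein that restrains JNK signalling, moved the other way, with 317, 305 and 311 CPM against 430, 442 and 412 CPM and no overlap (log2 fold 0.46 ± 0.0308, edgeR adjusted p = 6.15e-16). Its vector mean was 157 CPM. XIAP, a caspase inhibitor, was called higher by 0.14 ± 0.0562 (edgeR adjusted p = 0.0458) although its groups overlap. That call was lost under DESeq2 (adjusted p = 0.0978), with TMM computed without RELA (0.0828), with 6 libraries only (0.0554) and when p65 WT replicate 4 (0.234), p65 WT replicate 6 (0.246), p65 2CS replicate 8 (0.142) or p65 2CS replicate 9 (0.125) was left out. SOD2, the mitochondrial superoxide dismutase, had 65.68, 65.7 and 64.97 CPM in p65 WT cells and 64.6, 63.6 and 66.5 CPM in p65 2CS cells. Its log2 fold of -0.01 ± 0.0468 was not called. That fold turned to 0.015 with libraries scaled by their totals and to 0.003 without p65 2CS replicate 8. Another entry named SOD2 overlaps this one on the same strand and was not among the genes tested. How reads common to both entries were assigned is not given, so the level may be incomplete.

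**Figure D4:**
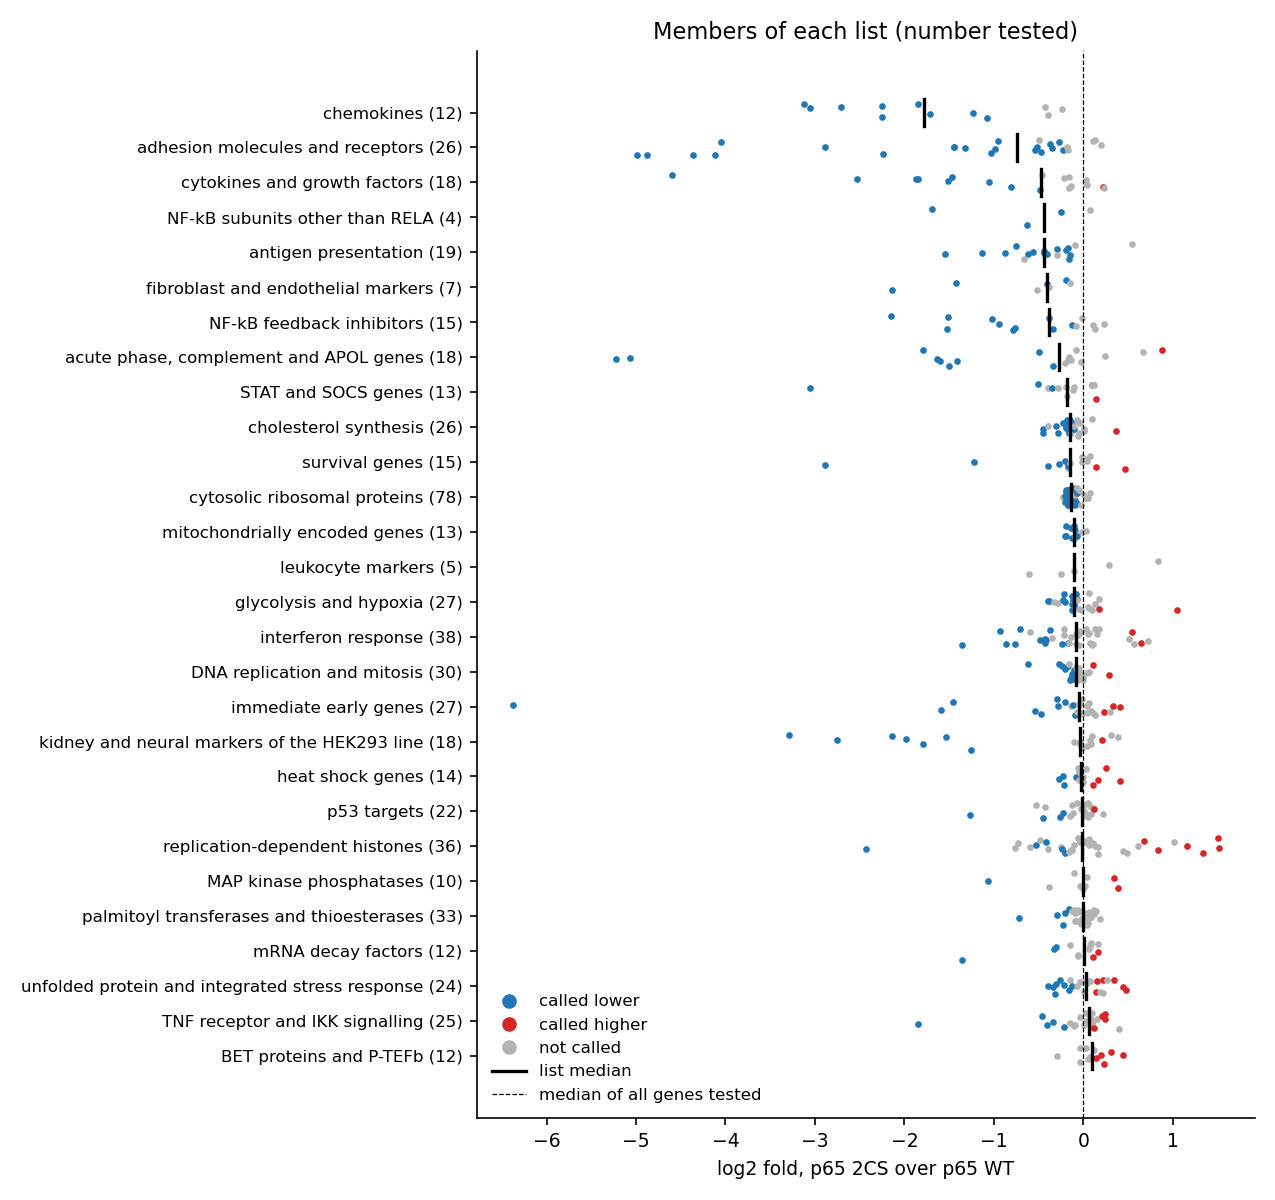
Log2 fold of p65 2CS over p65 WT for each tested member of the 28 lists, ordered by list median (black bar), with called members in colour and the median of all genes tested as a dashed line. Chemokines and adhesion molecules and receptors have the lowest medians, -1.78 and -0.74, and the list of BET proteins and P-TEFb the highest, 0.10.

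Genes that are often induced beside NF-kB targets gave 9 lower, 1 higher and 8 uncalled of 18 acute phase, complement and APOL genes, with a median log2 fold of -0.28. These are shares of 50% lower and 5.56% higher, against 17.9% and 13.4% of all genes. APOL6, an apolipoprotein L gene, had 16.3, 14.8 and 16.7 CPM in p65 WT cells and 0, 0.596 and 0.580 CPM in p65 2CS cells (log2 fold -5.22 ± 0.263, edgeR adjusted p = 2.7e-19). Its relative APOL1 went from 4.05 ± 0.451 to 0.123 ± 0.150 CPM, and neither gene's groups overlapped. PTGES, which makes prostaglandin E2, fell from 81.3 ± 8.73 to 23.4 ± 1.76 CPM, TNFAIP2 from 142 to 46.6 CPM, the pentraxin PTX3 from 12.9 to 4.15 CPM and the complement protease C1S from 14.8 to 5.25 CPM. The member that was higher, the phospholipase PLA2G4C, had 4.42, 5.26 and 6.31 CPM against 10.5, 9.94 and 8.91 CPM.

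Antigen presentation genes were lower in 15 of 19 (78.9%, against 17.9% of all genes) and higher in 0 (against 13.4%), with a median log2 fold of -0.43. TAPBP, or tapasin, which loads peptide onto MHC class I, had 175, 168 and 183 CPM in p65 WT cells and 75.2, 82.4 and 81.5 CPM in p65 2CS cells. The class I gene HLA-F fell from 22.7 ± 2.59 to 7.79 ± 0.814 CPM, the peptide transporter TAP1 from 85.6 ± 5.44 to 46.5 ± 3.83 CPM and the proteasome activator PSME2 from 53.9 to 32.0 CPM. HLA genes resemble each other, and their reads may be split. Of 38 interferon response genes, 12 were lower (31.6%), 2 higher (5.26%) and 24 not called, with a median of -0.08. Without p65 WT replicate 5, 4 were higher. IRF1, a transcription factor, fell from 58.6 ± 1 to 30.8 ± 0.315 CPM, the RNA sensor IFIH1 from 15.0 to 8.83 CPM, the GTPase GBP1 from 2.70 to 1.04 CPM and IFIT1 from 7.03 to 3.87 CPM. The pair that were higher were another RNA sensor, DDX58, with 9.53, 8.17 and 8.66 CPM against 15.1, 12.9 and 13.3 CPM, and the exonuclease ISG20, at 3.97 against 5.81 CPM.

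STAT5A, a transcription factor of cytokine signalling, had 152, 137 and 153 CPM in p65 WT cells, 17.5, 18.8 and 16.6 CPM in p65 2CS cells and a mean of 1.95 CPM with vector. It was 8.31-fold lower (log2 fold -3.05 ± 0.0605, edgeR adjusted p = 5.72e-34), with no overlap. Over the 13 STAT and SOCS genes 3 were lower (23.1%), 2 higher (15.4%) and 8 not called, shares near the 17.9% and 13.4% of all genes. With TMM computed without RELA 6 were lower and 0 higher. The higher calls were 0 or 1 under DESeq2, RLE scaling and several left-out libraries. SOCS3, the feedback inhibitor of STAT signalling, went from 18.5 to 12.9 CPM. Among 27 immediate early genes 10 were lower (37%) and 3 higher (11.1%), with a median log2 fold of -0.05. Beside BATF, the small MAF protein MAFF had 66.4, 60.4 and 63.9 CPM against 21.9, 21.3 and 20.2 CPM, and the zinc finger factor EGR3 80.5, 81.1 and 88.0 CPM against 30.6, 29.6 and 30.7 CPM. MYC was higher, with 117, 127 and 117 CPM against 159.3, 156.4 and 163.3 CPM (log2 fold 0.41 ± 0.0364, edgeR adjusted p = 4.59e-12), and so was ATF3, a stress-induced repressor (194 against 245 CPM). With vector these last 2 genes had 157 and 329 CPM, above the p65 WT means.

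Upstream of p65, 25 genes of TNF receptor and IKK signalling gave 5 lower (20%), 4 higher (16%) and 16 uncalled, shares near the 17.9% and 13.4% of all genes, with a median log2 fold of 0.06 (8 higher with libraries scaled by their totals). IKBKE, an IKK-related kinase, was the member with a large difference, with 31.4, 25.1 and 28.99 CPM against 7.74, 6.52 and 9.70 CPM (log2 fold -1.85 ± 0.11, edgeR adjusted p = 1.98e-17). ZFP36, or tristetraprolin, which destabilises cytokine mRNAs, fell from 35.9 ± 4.82 to 14.0 ± 0.519 CPM. Of the 12 mRNA decay factors in its list 3 were lower (25%) and 2 higher (16.7%), or 1 higher without p65 WT replicate 6 or p65 2CS replicate 8. Of 33 palmitoyl transferases and thioesterases 5 were lower (15.2%), 0 higher and 28 not called, with a median of -0.001. The share lower was near the 17.9% of all genes, and 13.4% of all genes were higher. LYPLA2, a thioesterase that removes palmitate, fell from 94.2 ± 5.78 to 57.1 ± 2.8 CPM and the transferase ZDHHC8 from 125 ± 0.562 to 102 ± 3.43 CPM. Without p65 WT replicate 5, 3 genes of this list were called lower.

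Fewer genes were higher by a large factor, and most of those that reached 5 CPM were modest. PGK1, a glycolytic enzyme (chromosome X, 77910739 to 78129296, plus strand of GRCh38), had 833, 785 and 904 CPM in p65 WT cells, 1746, 1795 and 1667 CPM in p65 2CS cells and 539 CPM on average with vector. Its groups did not overlap, and it was 2.07-fold higher (log2 fold 1.05 ± 0.0311, edgeR adjusted p = 9.46e-28). The rest of the 27 glycolysis and hypoxia genes included 13 lower (8 without p65 2CS replicate 8) and 1 more higher (none without p65 WT replicate 4), with a list median of -0.10 and every lower member within a log2 fold of -0.40. Over the list 48.1% were lower and 7.41% higher, against 17.9% and 13.4% of all genes. PGK1 is the sole member of that list at least 2-fold different in either direction. MISP, an actin-binding protein of the mitotic spindle, had 2.08, 2.22 and 2.29 CPM against 5.53, 5.13 and 4.58 CPM, and UNC5CL, an adaptor protein, 2.15, 2.09 and 2.97 CPM against 4.31, 6.68 and 5.48 CPM. PPARGC1A, a coactivator of mitochondrial genes, went from 2.70 to 5.02 CPM, the axonemal dynein DNAH6 from 5.61 to 10.5 CPM, OVGP1 from 4.25 to 7.85 CPM, RAB3IL1 from 2.80 to 5.18 CPM and ANKRD31 from 3.22 to 6.27 CPM. The pseudogene SLC7A5P1, which may share reads with its parent gene, went from 3.55 to 6.86 CPM. Their vector means, PGK1 aside, lay between 2.71 and 6.16 CPM.

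A pair of genes in this group rest on 1 library. EIF3CL, a near-identical copy of EIF3C, had 6.56, 6.91 and 5.69 CPM in p65 WT cells and 8.67, 7.15 and 36.5 CPM in p65 2CS cells, so the difference comes from p65 2CS replicate 9. Without it the log2 fold of 1.43 became 0.303 (edgeR adjusted p = 0.196), and DESeq2 gave an adjusted p of 0.0812. MTX1P1, a pseudogene of MTX1, had 10.8, 4.45 and 3.69 CPM with p65 2CS, and its log2 fold of 0.89 became 0.302 without p65 2CS replicate 7 (edgeR adjusted p = 0.419). DESeq2 gave it an adjusted p of 0.201.

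BET proteins and the P-TEFb elongation factor with its regulators were higher in 5 of 12 genes (41.7%, against 13.4% of all genes) and lower in 0 (against 17.9%), with a median log2 fold of 0.10. BRD2, a BET protein that binds acetylated histones, had 832, 824 and 822 CPM in p65 WT cells and 1140, 1125 and 1113 CPM in p65 2CS cells (log2 fold 0.45 ± 0.0233, edgeR adjusted p = 2.31e-19). HEXIM1, an inhibitor of P-TEFb, had 104 ± 4.36 and 129 ± 5.41 CPM. Neither gene's groups overlapped, and the vector means were 871 and 108 CPM. Among 24 genes of the unfolded protein response and integrated stress 6 were higher (25%) and 8 lower (33.3%), against 13.4% and 17.9% of all genes: the cystine transporter SLC7A11 went from 13.2 to 18.4 CPM and the pseudokinase TRIB3 from 14.4 to 19.6 CPM, whereas PPP1R15A, a phosphatase subunit, went from 317 to 242 CPM. GDF15, a stress cytokine and p53 target, fell from 5.96 ± 0.678 to 2.46 ± 0.465 CPM. Of 22 p53 targets 4 were lower (18.2%), 1 was higher (4.55%) and 17 were not called. Of 14 heat shock genes 4 were lower (28.6%), 4 higher (28.6%) and 6 not called. The lower count was 2 with libraries scaled by their totals, or without p65 WT replicate 4 or p65 2CS replicate 8. Of 10 MAP kinase phosphatases 2 were higher (20%), DUSP16 from 109.5 to 143 CPM and DUSP8 from 68.7 to 87.3 CPM. The lower one (10%), DUSP6, went from 1.25 to 0.609 CPM, a call lost under DESeq2, without the expression filter and without p65 WT replicate 6 or p65 2CS replicate 7 or 8. Of 36 tested histone genes, whose mRNAs mostly lack poly-A tails and whose near-identical copies may share reads, 5 were lower (13.9%) and 6 higher (16.7%), and 3 and 3 under DESeq2. Single left-out libraries moved the lower count to between 2 and 3 (p65 WT replicate 5, p65 2CS replicate 7 or 8) and the higher count to 3 (p65 WT replicate 4).

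Among 18 tested kidney and neural markers of the HEK293 line 7 were lower, all by at least 2-fold, 1 was higher, a call that several alternatives lost, and 10 were not called. These are shares of 38.9% lower and 5.56% higher, against 17.9% and 13.4% of all genes. NPHS1, or nephrin, a podocyte adhesion protein, had 42.8, 37.1 and 45.3 CPM in p65 WT cells, 4.83, 4.25 and 3.79 CPM in p65 2CS cells and a mean of 0.209 CPM with vector. It was 9.75-fold lower (log2 fold -3.29 ± 0.105, edgeR adjusted p = 8.59e-27). KIRREL2, a nephrin-like gene that overlaps NPHS1 on the other strand, was also lower (log2 fold -3.52). Kidney transcription factors were lower too, PAX8 from 4.28 ± 1.13 to 0.657 ± 0.388 CPM and SIX2 from 39.7 to 13.6 CPM, as was the water channel AQP1, from 6.89 to 1.97 CPM. Each of these 4 had its vector mean below its p65 2CS mean. Of 7 tested fibroblast and endothelial markers 4 were lower (57.1%) and 0 higher, led by the endothelial cadherin CDH5, with 9.97, 8.43 and 13.2 CPM against 2.44, 2.70 and 2.00 CPM, and by VWF, at 25.1 against 9.40 CPM. The list's summed level was 121 to 124 CPM in p65 WT libraries and 82.8 to 85.9 CPM in p65 2CS libraries, and the endothelial marker PECAM1 had 3 and 1 reads. The 5 tested leukocyte markers were not called (edgeR quasi-likelihood, 0 calls, or 1 lower without p65 WT replicate 4), with summed levels of 5.76 to 7.17 and 6.36 to 6.96 CPM.

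The shares of lincRNA and antisense genes called lower or higher were below the 17.9% and 13.4% of all genes, and their shares at least 2-fold lower were above the 4.86% of all genes. Their median p65 WT levels were 1.44 and 1.36 CPM, against 28.5 CPM for protein-coding genes. A gene could pass the expression filter through a single group, and genes that passed only through p65 WT could only be lower. The part of level and filter in these shares was not tested. Of 861 lincRNA genes 120 (13.9%) were lower and 29 (3.37%) higher (18 under DESeq2 or without p65 2CS replicate 8), and 87 (10.1%) were at least 2-fold lower, against 4.12% of 14325 protein-coding genes. Of 1159 antisense genes 128 (11%) were lower and 31 (2.67%) higher (15 under DESeq2, 18 without p65 WT replicate 6), and 84 (7.25%) were at least 2-fold lower. The strand setting of the counting is not given, so reads of antisense genes and their partners cannot be separated. Transcription factors, by the family labels in the deposited table, leaned the other way: of 1302 tested, 339 (26%) were higher and 180 (13.8%) lower. The zinc fingers of the C2H2 family, singled out after their values were seen, held 173 higher (30.9%) and 35 lower (6.25%) of 560, with a median log2 fold of 0.13 and 7 genes at least 2-fold lower.

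Lists of abundant genes showed many small decreases. Of 78 cytosolic ribosomal protein genes 68 were lower (87.2%, against 17.9% of all genes) and 0 higher (against 13.4%), with log2 folds from -0.23 to 0.07 and a median of -0.13. Of 26 cholesterol synthesis genes 14 were lower (53.8%) and 1 higher (3.85%, or 0 genes without p65 2CS replicate 8), with a median of -0.14. INSIG1, which retains the sterol sensor in the endoplasmic reticulum, went from 80.5 to 58.8 CPM. Of 13 mitochondrially encoded genes 10 were lower (76.9%) and 0 higher, with a median of -0.10. The lower count was 3 under DESeq2, 6 with libraries scaled by their totals, and 3 without p65 WT replicate 4 or without p65 2CS replicate 7. Of 30 replication and mitosis genes 14 were lower (46.7%), such as the cyclin CCNE2 (12.8 with p65 WT against 8.30 CPM). In the same list 2 were higher (6.67%, or 1 gene without p65 2CS replicate 8), such as the licensing factor CDT1 (245 with p65 WT against 300 CPM). Calls also varied with gene length. In the shortest quartile of protein-coding genes (207 to 3279 bases) 22.2% were lower and 8.38% higher, with a median log2 fold of -0.04, and in the longest (7545 to 118976 bases) 16.9% were lower and 23.5% higher, with a median of 0.04. The part of gene length in the small differences of these lists was not tested.

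**Figure D5:**
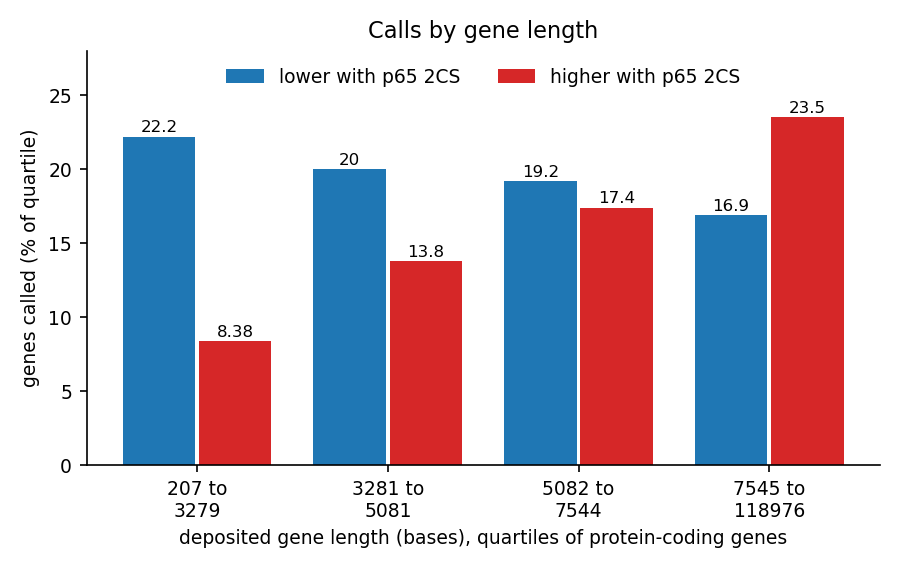
Share of protein-coding genes called lower (blue) or higher (red) with p65 2CS, in quartiles of the gene length given in the deposited table. The share called higher runs from 8.38% in the shortest quartile to 23.5% in the longest.

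The kB motif was counted within 250 bases before the start of genes that have a RefSeq promoter entry, on both strands, counting overlapping matches of the usual consensus. A gene counted as holding a match if any of its entries did. A match was present in 977 of 11860 tested genes with an entry (8.24%). Counted entry by entry, it was in 5.21% of all 35116 entries, a measure unlike the share of genes. By gene, a match was present in 271 of 2272 called lower (11.9%) and in 121 of 1877 called higher (6.45%). Of 7712 genes not called, 585 held one (7.59%). Among NF-kB list genes the motif was in 22 of 43 called lower (51.2%) and in 8 of 23 not called (34.8%). Among genes lower by a log2 fold of at least 1, 61 of 454 held a match (13.4%), and among those lower by at least 4, 5 of 80 did (6.25%). Of the 12 genes with the lowest folds named above, LILRB5 alone had a match. ADAMTSL2, BATF, CTSE, KRT74, LINC01679 and SFTPA2 have entries with none, and the rest have no entry. ICAM1, EBI3 and TNFRSF1B have entries with no match, which says only that these letters are not in this window, and CD40, CSF2RB and TMPRSS13 are named without a sequence.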

How the data were processed

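The deposited table holds raw counts, which the authors did not normalize, for 58735 genes, with gene length in bases, biotype and transcription factor family. Libraries were made from poly-A RNA, per the labels' protocols, and HISAT2 2.0.5 was the aligner, per the submitters' processing notes. How reads were assigned to genes, with which strand setting and on which build, is not given in the sources used here. All 58735 identifiers, positions and symbols matched GENCODE release 29 (GRCh38).

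Analysis of these counts used edgeR 4.0.16 in R 4.3.3: expression filter over the groups (18195 genes kept), TMM scaling, quasi-likelihood F test in a fit of all 9 libraries, contrast p65 2CS minus p65 WT, Benjamini-Hochberg adjustment over all genes tested, threshold 0.05. CPM uses TMM-scaled totals. The standard error of a log2 fold is implied by the F test. Library pairs within a group differed by more than sampling noise (chi-square per degree of freedom 1.91 to 2.6), and a count of 0 over a group allows 3 counts, 0.0627 CPM in the p65 WT group and 0.0489 CPM in the p65 2CS group. Promoter sequences and motif counts came from a RefSeq table on GRCh38.p14, matched by symbol.

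Alternatives were DESeq2 1.42.0, RLE scaling, scaling by totals alone, TMM without RELA, no expression filter, 6 libraries only, and each p65 WT and p65 2CS library left out in turn. Members, lists and tests were chosen with earlier results of these data known. Genes named are RELA, the 12 lowest and 12 highest called log2 folds among genes whose libraries do not overlap and whose mean reaches 5 CPM in the higher group, the 6 largest differences in CPM other than RELA of at least 1.5-fold, members of the 6 NF-kB lists and of the acute phase list, and up to 4 called members of each other list with up to 2 called the opposite way. Genes overlapping a named gene are given as overlaps.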

Additional observations from a re-analysis of the deposited data

How the results depend on the processing

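The count of called genes lay between 4771 and 5918 over the alternatives, with 4771 to 5356 when each library was left out in turn. Of the 5685 calls, 0 were called in the opposite direction under any of them. Calls kept in the same direction numbered from 4504 (without p65 2CS replicate 8) to 5629 (RLE scaling), with 4798 under DESeq2. Called genes at least 2-fold higher with p65 2CS numbered 52 under DESeq2, and NF-kB genes called higher numbered 5 with libraries scaled by their totals. The small log2 fold of SOD2 turned from -0.013 to 0.015 with that scaling, and lay between -0.027 and 0.003 with each library left out in turn. The causes were not tested. Genes lower by at least 2-fold numbered 836 to 1257 and NF-kB genes lower 53 to 58. The RELA log2 fold lay between 1.43 and 1.58. No paired analysis was possible because the groups share no replicate numbers. With 3 libraries a group, depth limits genes near 1 CPM most: the standard error of the log2 fold was 0.647 for TNFRSF1B and 0.0498 for ICAM1. More RELA transcript with p65 2CS goes with every comparison, and no setting removes it.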
